A study of Mus musculus with 12 samples.

Results

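The genes of MHC class I antigen presentation were followed across macrophages exposed to estradiol in culture and macrophages taken from pregnant mice. The set holds 9 genes: the heavy chains H2-D1, H2-K1, H2-T23, H2-T24 and H2-M3, the light chain B2m, the peptide transporter subunits Tap1 and Tap2, and the loading factor Tapbp. Members were taken as every probe set annotated to exactly 1 gene symbol in that set. Of the 9 genes, 8 had such a probe set, with 24 probe sets in all, among 12393 genes and 20380 single-gene probe sets on the array. H2-D1 had 9 probe sets, H2-K1 and Tap1 had 4 each, B2m and Tapbp had 2 each, and H2-T24, H2-M3 and Tap2 had 1 each. H2-T23, which encodes the Qa-1 heavy chain, was annotated only to probe sets shared with other genes, and its level was not analysed here.

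MHC class I molecules display peptides from inside the cell to CD8 T cells and to receptors of natural killer cells. Proteasomes cut cytosolic proteins, the transporter built of Tap1 and Tap2 moves the peptides into the endoplasmic reticulum, Tapbp (tapasin) holds the empty heavy chain and B2m pair at the transporter, and the loaded complex leaves for the cell surface. Interferons raise most of these genes together in macrophages, and alveolar macrophages are the resident phagocytes of the airspaces.

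The study measured total RNA with mouse Affymetrix arrays in 4 groups of 3 arrays. Estradiol arrays came from RAW264.7 cells cultured overnight with estradiol at 1 ug/mL. Unstimulated arrays came from RAW264.7 cells that the series design describes as cultured with vehicle. Pregnant and Control arrays came from bronchoalveolar lavage cells, labelled as macrophages, of intact pregnant mice and of control mice, with RNA extracted directly and no culture. The estradiol treatment text is attached to every sample in the labels, the lavage ones included; the group labels and the design were followed here. RAW264.7 is a macrophage-like line from a tumour induced by Abelson leukaemia virus in a male BALB/c mouse. The labels give neither the strain, age or sex of the lavage mice nor the stage of pregnancy, and they do not say whether arrays of a group came from separate cultures or animals, so p-values measure the spread between these arrays, which may be technical.

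Array medians lay between 409.7 and 439.8 intensity units. Pearson correlations over probe sets were 0.994 to 0.999 within groups, 0.994 to 0.996 between the cell-line groups, 0.993 to 0.997 between the lavage groups, and 0.908 to 0.915 between cell line and lavage. In each group 6 of 7 measured macrophage markers exceeded the array's 40th percentile on all 3 arrays, but not the same 6. Mertk averaged log2 levels of 4.56 with estradiol and 4.52 in unstimulated RAW264.7 cells, against 12.14 in pregnant and 12.11 in control lavage. Itgam averaged 9.17 and 8.79 in those RAW264.7 groups, against 5.3 and 5.61 in lavage. The percentile lay at log2 levels of 7.16 to 7.36. All 7 alveolar macrophage markers exceeded it on all 3 arrays of both lavage groups, and 1 of 7 did so in each RAW264.7 group. Of 9 epithelial markers, 6 did so in both lavage groups and none in RAW264.7 cells. Of 5 neutrophil markers, 4 did so in both lavage groups, 2 in RAW264.7 cells with estradiol and 1 in unstimulated RAW264.7 cells.

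Promoters of 4 members are shown because their probe sets gave different calls with estradiol: Tap1 rose, 1 H2-D1 probe set fell, and no probe set of H2-K1 or B2m was called. Each line gives the 250 bases before a RefSeq transcript start in GRCm38.p6, written 5′ to 3′ on the gene's strand. Capitals mark matches to the NF-kB consensus or to the core of the interferon-stimulated response element (GAAANNGAAA), searched on both strands. The positions are H2-D1 at chr17:35262844-35263093 (plus strand), H2-K1 at chr17:34000334-34000583 (minus strand), B2m at chr2:122147437-122147686 (plus strand) and Tap1 at chr17:34187306-34187555 (plus strand).
H2-D1: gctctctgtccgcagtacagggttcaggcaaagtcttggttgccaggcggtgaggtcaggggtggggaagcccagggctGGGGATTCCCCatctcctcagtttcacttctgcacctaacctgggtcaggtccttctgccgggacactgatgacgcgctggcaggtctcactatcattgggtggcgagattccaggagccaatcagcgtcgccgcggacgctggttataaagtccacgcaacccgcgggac
H2-K1: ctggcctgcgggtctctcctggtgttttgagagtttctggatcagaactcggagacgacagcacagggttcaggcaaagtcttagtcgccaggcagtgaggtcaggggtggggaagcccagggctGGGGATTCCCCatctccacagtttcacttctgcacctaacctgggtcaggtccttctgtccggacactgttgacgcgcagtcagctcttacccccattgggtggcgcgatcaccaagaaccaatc
B2m: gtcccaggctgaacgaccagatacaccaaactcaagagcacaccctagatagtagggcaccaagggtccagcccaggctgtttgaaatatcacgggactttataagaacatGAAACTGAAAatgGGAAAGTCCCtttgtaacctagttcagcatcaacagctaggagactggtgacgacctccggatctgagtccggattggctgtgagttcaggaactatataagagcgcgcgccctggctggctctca
Tap1: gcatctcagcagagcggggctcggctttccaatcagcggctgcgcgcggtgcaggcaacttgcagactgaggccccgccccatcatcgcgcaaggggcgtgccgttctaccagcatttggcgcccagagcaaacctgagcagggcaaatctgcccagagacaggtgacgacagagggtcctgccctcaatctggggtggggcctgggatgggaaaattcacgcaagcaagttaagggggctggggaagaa

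H2-D1 and H2-K1 carried the same capitalised run, in which 2 NF-kB matches overlap by all but 1 base. In B2m the interferon element core and the NF-kB match stood close together, and in the Tap1 window neither was found. Full 300-base windows, which run to 50 bases past the start, were available for 7 of the 9 genes. H2-K1 had 2 windows, of which 1 is shown. NF-kB matches were in 4 of these 7 (H2-D1, H2-K1, H2-M3, B2m), against 4.51% of all 32851 mouse promoter windows. The interferon element core was in 2 of the 7 (B2m and H2-T23), against 3.44% of all windows. The estrogen response element GGTCANNNTGACC was in none of the 7 and in 0.07% of all windows. The CCAAT box was in all 7 and in 37.4% of all windows, and the interferon-gamma element TTCNNNGAA was in H2-M3 alone and in 8.3% of all windows. H2-T24 and Tap2 had no window and are named only. Only exact matches to these letters were counted. A window without a match, such as those of H2-D1 and H2-K1 for the interferon element core, may hold a variant of the element. These matches describe letters in the windows and were not linked to binding.

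With estradiol, H2-T24 fell, Tap1 rose on its bright probe set and 1 of 9 H2-D1 probe sets fell slightly, while no probe set of H2-K1, H2-M3, B2m, Tap2 or Tapbp was called. The call was an adjusted p under 0.05 from limma with Benjamini-Hochberg adjustment over all 20380 single-gene probe sets, on log2(intensity + 1). Of the 24 probe sets, 1 rose, where 5.43% of all probe sets rose, and 2 fell, where 4.24% of all fell. The median log2 change was -0.03 over the 24 and 0.01 over all probe sets. Both shares are near the background.

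H2-T24, a nonclassical (class Ib) heavy chain encoded in the T region of the MHC, gave intensities of 430, 182 and 320 with estradiol, against 882, 1094 and 985 in unstimulated cells. All 3 estradiol arrays lay below all 3 unstimulated arrays, and they spread widely among themselves. The log2 means were 8.20 ± 0.63 with estradiol and 9.94 ± 0.16 in unstimulated cells (SD, n = 3 each). The log2 change was -1.74 ± 0.29 (SE, n = 3 each, adjusted p = 0.0151 in limma), a 3.35-fold lower mean. The call depended on single arrays: the adjusted p was 0.0531, 0.0706 and 0.0662 without unstimulated replicate 1, 2 or 3, and 0.0514 without estradiol replicate 3, with limma log2 changes of -2.02 to -1.40 over the 6 omissions. Estradiol replicate 2, the lowest array for H2-T24, also had the largest 3′ minus 5′ difference of the actin control probe sets, 0.74 on the log2 scale, against 0.46 to 0.48 on the other two estradiol arrays and 0.39 to 0.43 on the unstimulated arrays. Without that array the H2-T24 log2 change was -1.40 (adjusted p = 0.00506 in limma).

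Tap1, a subunit of the peptide transporter, gave log2 levels of 9.71, 9.95 and 9.74 with estradiol on its brightest probe set (1416016_at), against 9.44, 9.35 and 9.34 in unstimulated cells. The groups did not overlap. The log2 change was 0.42 ± 0.08 (SE, n = 3 each, adjusted p = 0.021 in limma), or 1.34-fold. Its adjusted p was 0.0622, 0.0926 and 0.0936 without unstimulated replicate 1, 2 or 3, and 0.0571 without estradiol replicate 3 (limma). Estradiol replicate 2 was the highest array here, and without it the log2 change was 0.35 (adjusted p = 0.0154 in limma). The other 3 Tap1 probe sets were dim, that is, they exceeded the 40th percentile on 0 or 1 of the 12 arrays, and their log2 changes were 0.01, -0.12 and 0.14, none of them called. Averaging all 4 gave 0.11 (adjusted p = 0.243 in limma).

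Tap2, the partner subunit, gave log2 levels of 8.97, 9.39 and 9.05 with estradiol, against 9.15, 8.92 and 8.94 in unstimulated cells. The groups overlapped and the log2 change was 0.13, with a 95% interval of -0.16 to 0.42. Tapbp had log2 changes of -0.04 on its bright probe set (1421812_at) and -0.20 on the second (1450378_at, adjusted p = 0.241 in limma). On the second, the estradiol arrays at 8.76, 8.41 and 8.70 lay below the unstimulated arrays at 8.81, 8.82 and 8.84.

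Among the classical heavy chains, which present peptides to CD8 T cells, H2-D1 had 1 called probe set of 9. On 1426324_at the log2 levels were 11.72, 11.64 and 11.66 with estradiol, against 11.85, 11.92 and 11.94 in unstimulated cells. The log2 change was -0.23 ± 0.05 (SE, n = 3 each, adjusted p = 0.0418 in limma), or 1.17-fold lower. None of the 6 fits that left out an array kept this call, with adjusted p of 0.0524 to 0.158 in limma. The other 8 H2-D1 probe sets had log2 changes of -0.09 to 0.06, 7 of them negative, and none was called. Of the 9, 7 carry the _x_at suffix, which marks probes that can also bind other transcripts. The H2-D1 and H2-K1 coding sequences are similar, though they were not compared here, so those probe sets may read either gene.

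H2-K1 had no called probe set of 4, all 4 of them with the _x_at suffix, so these too may read H2-D1. On its brightest (1451931_x_at) the log2 levels were 13.24, 13.24 and 13.22 with estradiol, against 13.26, 13.36 and 13.37 in unstimulated cells, a log2 change of -0.09 with a 95% interval of -0.22 to 0.03. The 2 other bright H2-K1 probe sets had log2 changes of 0.03 and -0.04. The dim one (1450534_x_at) had 0.32 (adjusted p = 0.0901 in limma).

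H2-M3, which presents N-formylated peptides, gave log2 levels of 12.47, 12.31 and 12.30 with estradiol, against 12.27, 12.42 and 12.39 in unstimulated cells. Its log2 change was 0.00, with a 95% interval of -0.17 to 0.17. B2m, the light chain shared by all of these heavy chains, gave 13.76, 13.79 and 13.77 with estradiol, against 13.77, 13.74 and 13.69 in unstimulated cells (1449289_a_at). Its 2 probe sets had log2 changes of 0.04 and 0.01, with 95% intervals of -0.07 to 0.16 and -0.12 to 0.13. The levels of both genes overlapped between the groups. The plot of brightest probe sets shows each array.

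**Figure D1:**
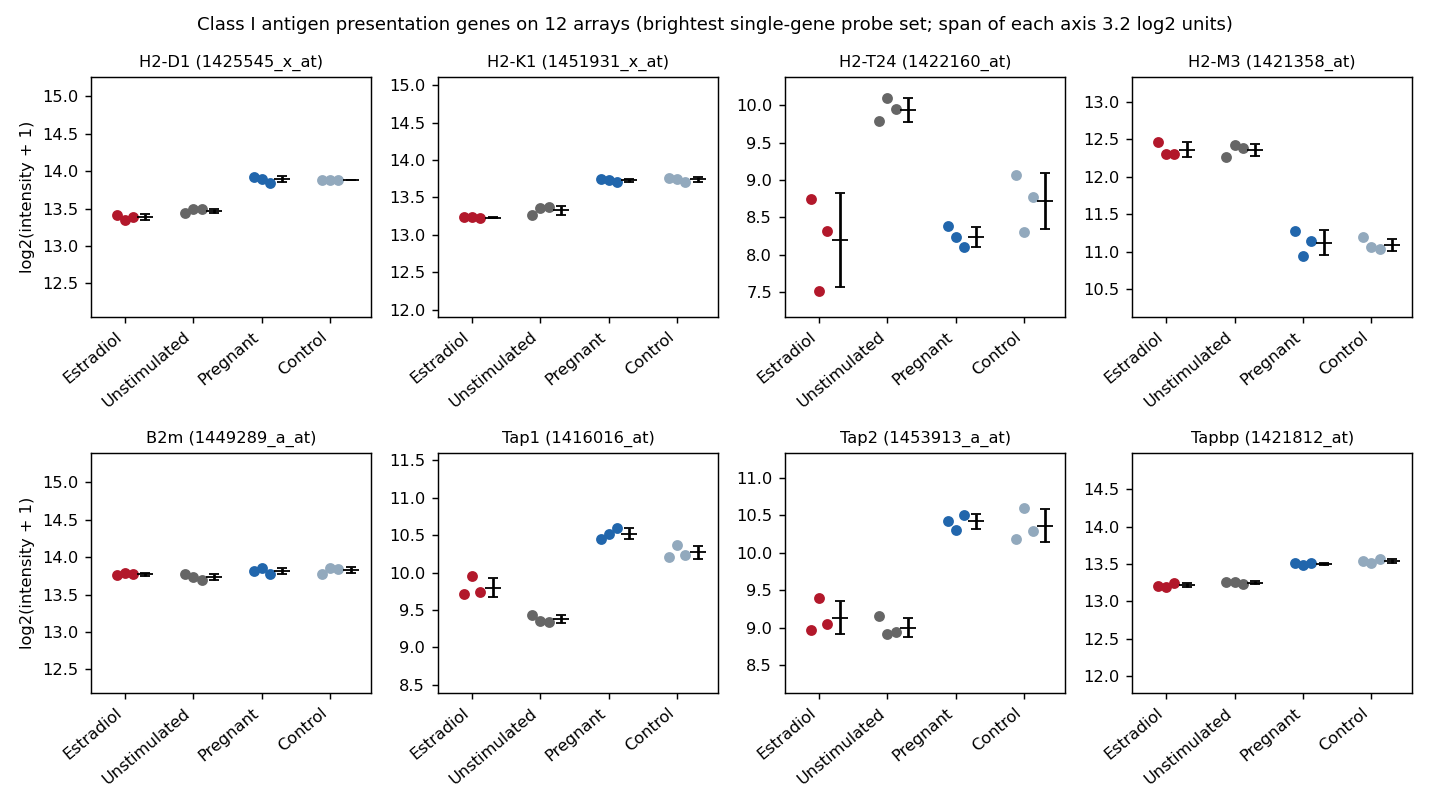
Log2(intensity + 1) of the brightest single-gene probe set of 8 class I genes on each of 12 arrays (points), with the mean and SD of each group of 3 beside them (bars); every axis spans the same log2 range but starts at a different level. H2-T24 averages 8.20 with estradiol and 9.94 in unstimulated cells, while B2m lies within 13.69 to 13.86 on all 12.

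The listed class I pathway genes were taken at the brightest probe set of each. On that basis 5.92% of all 12393 genes rose with estradiol and 4.09% fell, the background for the counts of small lists that follow. Of 12 measured other class I heavy chains, none rose and 2 fell: Mr1, which presents microbial vitamin B metabolites, by a log2 change of -0.97 ± 0.06 (SE, adjusted p = 0.000487 in limma), and Hfe, which takes part in iron sensing, by -0.41 ± 0.06 (adjusted p = 0.007 in limma). Both calls held in all 6 fits that left out an array. Of 12 loading and trimming partners, 2 rose and none fell: Uggt1, the glycoprotein folding sensor, by 0.46, and Sec61a1, a subunit of the translocon, by 0.19, with calls kept in 3 and 1 of 6 omissions. Of 4 immunoproteasome genes, none rose and 2 fell: the catalytic subunits Psmb10 by -0.32 and Psmb8 by -0.29 on the log2 scale, with each call kept in 2 of 6 omissions.

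Of 18 regulators of class I transcription and interferon signalling, none rose and 3 fell. Stat2, a signal transducer of type I interferon, changed by -0.44 (adjusted p = 0.00621 in limma, called in 6 of 6 omissions). Rfxank, a subunit of the RFX complex on class I and class II promoters, changed by -0.43, and Irf9, the DNA-binding partner of Stat2, by -0.41, each called in 2 of 6 omissions. Irf1, an activator of class I and Tap1 transcription, had a log2 change of 0.00 (adjusted p = 0.993 in limma). Nlrc5 was not analysed here. List medians on the log2 scale were -0.05 for other heavy chains, 0.12 for loading partners, -0.25 for the immunoproteasome and 0.02 for regulators, against 0.01 for all probe sets. Of 21 interferon-stimulated genes, 3 rose and 8 fell (median -0.32), and of 11 class II presentation genes, 2 rose and 4 fell (median -0.14). The same background shares, 5.92% higher and 4.09% lower, apply to these counts.

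Summed intensity of 9 T cell markers was 1434 to 1587 with estradiol and 2617 to 3168 in unstimulated cells, with 1 of the 9, Cd28, above the 40th percentile. Cd28 itself had a log2 change of -1.15, while 7 of the 9 markers had a positive log2 change, with a median of 0.09. The sum of 5 neutrophil markers was 653 to 666 with estradiol and 411 to 455 in unstimulated cells. S100a8 averaged a log2 level of 8.31 with estradiol and 6.58 in unstimulated cells, while 3 of the 5 markers had a negative log2 change, with a median of -0.01. Both groups were cultures of the RAW264.7 line, so these sums describe levels of the marker genes in that line. The part of these shifts in the class I values was not tested.

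No class I probe set was called between pregnant and control lavage cells. Of the 24, 0 were called, and 0% of all 20380 probe sets were called. At an unadjusted p under 0.05, limma gave 4 of the 24 and 1992 of all probe sets, and the smallest adjusted p over all was 0.237. The median log2 change was 0.05 over the 24 and 0.02 over all. In bulk samples such as these, fewer cells of a type and less RNA per cell cannot be told apart.

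H2-T24 gave log2 levels of 8.38, 8.24 and 8.11 in pregnant mice, against 9.07, 8.31 and 8.77 in control mice. The groups overlapped, and the log2 change was -0.48 ± 0.19 (SE, n = 3 each, adjusted p = 0.498 in limma). Tap1 (1416016_at) gave 10.45, 10.52 and 10.59 in pregnant mice, against 10.21, 10.37 and 10.23 in control mice. Those groups did not overlap, and the log2 change was 0.25 ± 0.07 (SE, n = 3 each, adjusted p = 0.44 in limma). The log2 change of Tap2 was 0.06, with a 95% interval of -0.23 to 0.34, and those of the 2 Tapbp probe sets were -0.04 and -0.25.

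All 9 H2-D1 probe sets had log2 changes of 0.00 or above, up to 0.28 on 1450170_x_at. That probe set gave 9.16, 9.17 and 8.83 in pregnant mice, against 8.77, 8.82 and 8.73 in control mice (adjusted p = 0.484 in limma). The 4 H2-K1 probe sets had log2 changes of -0.01 to 0.22, with the largest value on the dim one. The log2 change of H2-M3 was 0.03, with a 95% interval of -0.21 to 0.27. B2m gave 13.82, 13.86 and 13.77 in pregnant mice, against 13.78, 13.86 and 13.84 in control mice, and its 2 probe sets had log2 changes of -0.01 and 0.01. The plot of changes sets both comparisons side by side.

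**Figure D2:**
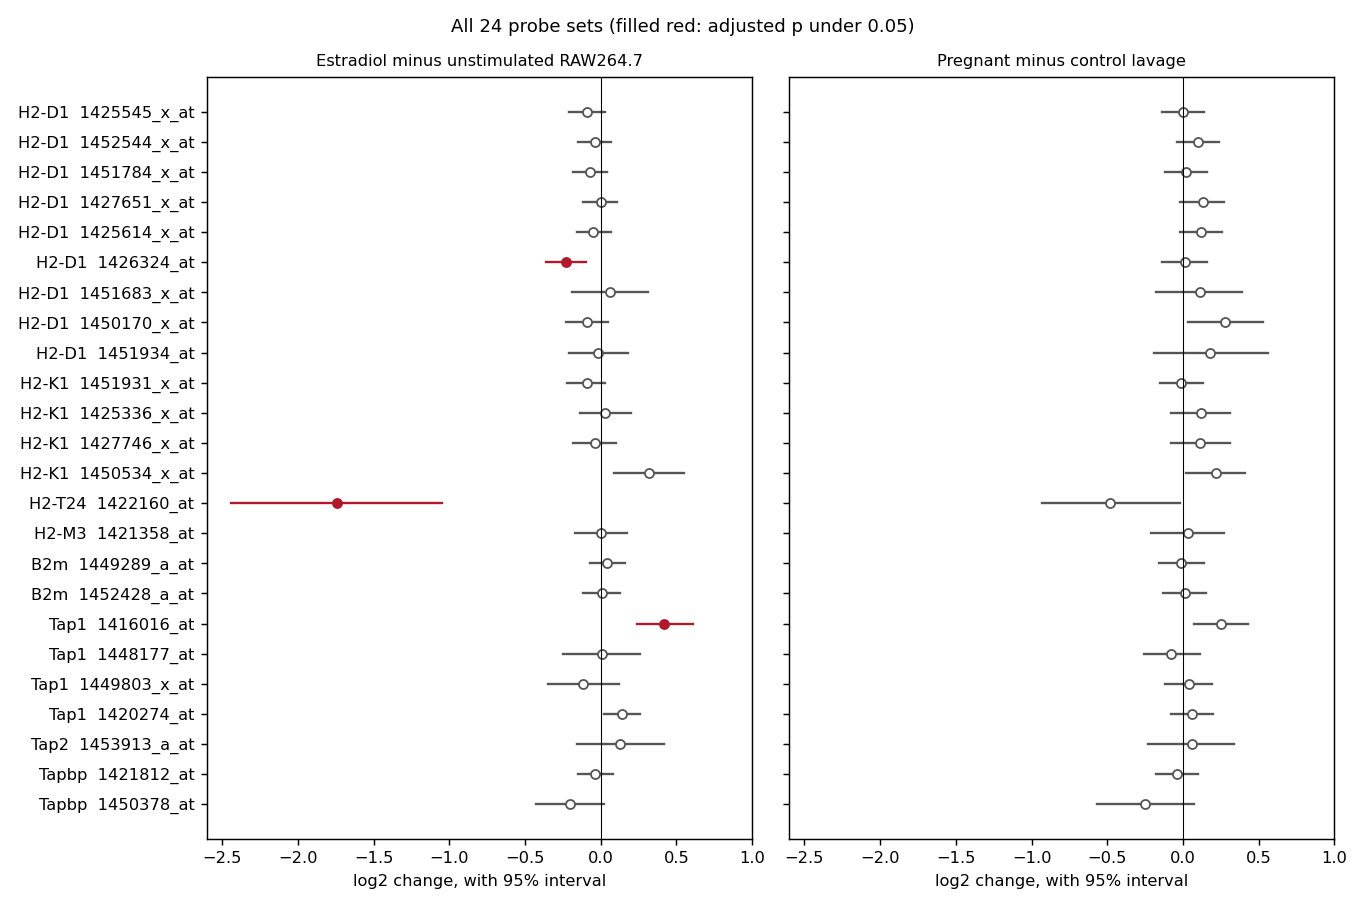
Log2 change (points) with its 95% interval (lines) of all 24 class I probe sets, for estradiol minus unstimulated RAW264.7 cells (left) and pregnant minus control lavage cells (right); filled red points have an adjusted p under 0.05. H2-T24 (-1.74), Tap1 1416016_at (0.42) and H2-D1 1426324_at (-0.23) are filled on the left, and no point is filled on the right.

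None of the listed pathway genes was called in pregnancy. Irf1 had a log2 change of -0.32 ± 0.06 (SE, adjusted p = 0.397 in limma) and means of 11.26 in pregnant and 11.58 in control mice. Of 21 interferon-stimulated genes, 20 had a positive change, with a median of 0.15 on the log2 scale and 0 called. No marker of another cell type was called between the lavage groups in limma, but most members of several lists had changes of one sign. Of 9 epithelial markers, 7 had a positive log2 change in pregnancy, with a median of 0.64, and Epcam averaged 11.42 ± 0.32 in pregnant mice and 10.54 ± 0.07 in control mice (SD, n = 3 each). Of 9 T cell markers, 8 had a negative log2 change, with a median of -0.96, and Cd3g averaged 5.88 in pregnant mice and 7.26 in control mice. All 5 NK cell markers had a negative log2 change, with a median of -0.14, and 1 of them was above the 40th percentile on all 3 arrays of each group. Of 6 dendritic cell markers, 5 had a negative log2 change, with a median of -0.23, and 2 were above that percentile. The sums over each list overlapped between the groups. Summed intensity of 9 epithelial markers was 15986 to 27476 in pregnant mice and 14034 to 23767 in control mice. The sum of 5 neutrophil markers was 6355 to 11362 in pregnant mice and 5968 to 20630 in control mice. The T cell sum was 443 to 671 in pregnant mice and 515 to 1293 in control mice, and none of its 9 markers was above the 40th percentile on all 3 arrays of either group. Their part in the class I values was not tested.

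The pregnancy change was set against the estradiol change by its own contrast over all 12 arrays, with limma. Of the 24 probe sets, 0 were called, and 3.26% of all probe sets were called in either direction. At an unadjusted p under 0.05 there were 4 of the 24 and 3665 of all 20380 probe sets. H2-T24 had the largest difference, 1.27 ± 0.38 on the log2 scale (SE, adjusted p = 0.111), with changes of -0.48 in pregnancy and -1.74 with estradiol. H2-D1 1426324_at differed by 0.24 (adjusted p = 0.114 in limma), Tap1 1416016_at by -0.17 (adjusted p = 0.457 in limma), and both B2m probe sets by -0.05 and 0.00. At the brightest probe set of each gene, 1.76% of all genes were called higher in this contrast and 1.86% lower. Of 12 other heavy chains 2 were higher (Mr1 and Hfe), of 12 loading partners 1 was lower (Uggt1), of 4 immunoproteasome genes 1 was higher (Psmb8), and of 18 regulators 0 were called, with 6 at an unadjusted p under 0.05 in limma. Of 21 interferon-stimulated genes 3 were higher and 1 lower, and of 11 class II presentation genes 3 were higher and 1 lower.

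Between control lavage cells and unstimulated RAW264.7 cells, 16 of the 24 class I probe sets were called, near the 62.3% called over all probe sets in either direction. Of the 24 probe sets, 14 were higher in lavage, where 26.9% of all probe sets were higher, and 2 were lower, where 35.4% of all were lower. The 14 include 8 probe sets of H2-D1 and 2 of H2-K1. Most of these carry the _x_at suffix and may read the same transcripts, so the count does not stand for separate genes. The median log2 difference was 0.23 over the 24 and -0.08 over all probe sets. Source, sex, culture and any difference of strain cannot be told apart here, and class I sequences vary between mouse haplotypes, so probes may bind the alleles of the mice and of the line unequally.

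Both transporter subunits were higher in lavage. Tap2 gave intensities of 1166, 1551 and 1247 in control lavage, against 568, 485 and 490 in unstimulated RAW264.7 cells, a log2 difference of 1.35 ± 0.12 (SE, n = 3 each, adjusted p = 9.54e-05 in limma). Tap1 (1416016_at) was higher by 0.89 ± 0.06 (SE, adjusted p = 3.32e-05 in limma), and its 3 dim probe sets differed by -0.02 to 0.03 and were not called. Tapbp was higher by 0.29 on 1421812_at and by 0.10, not called, on 1450378_at. Of the 9 H2-D1 probe sets, 8 were higher, by 0.41 to 0.71 on the log2 scale, and the dim one was not called. Of the 4 H2-K1 probe sets, 2 were higher, by 0.41 and 0.18. B2m was higher by 0.15 on 1452428_a_at and by 0.10, not called, on 1449289_a_at. The calls of B2m 1452428_a_at and H2-K1 1425336_x_at held in 1 of 6 omissions each, with limma adjusted p up to 0.143 and 0.119.

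The 2 nonclassical heavy chains went the other way. H2-M3 gave log2 levels of 11.19, 11.06 and 11.04 in control lavage, against 12.27, 12.42 and 12.39 in unstimulated RAW264.7 cells, a difference of -1.27 ± 0.07 (SE, n = 3 each, adjusted p = 8.07e-06 in limma). H2-T24 differed by -1.22 ± 0.19 (SE, adjusted p = 0.00151 in limma). Neither gene's groups overlapped. In the other groups H2-M3 averaged 11.12 ± 0.17 in pregnant mice and 12.36 ± 0.10 with estradiol (SD, n = 3 each).

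**Figure D3:**
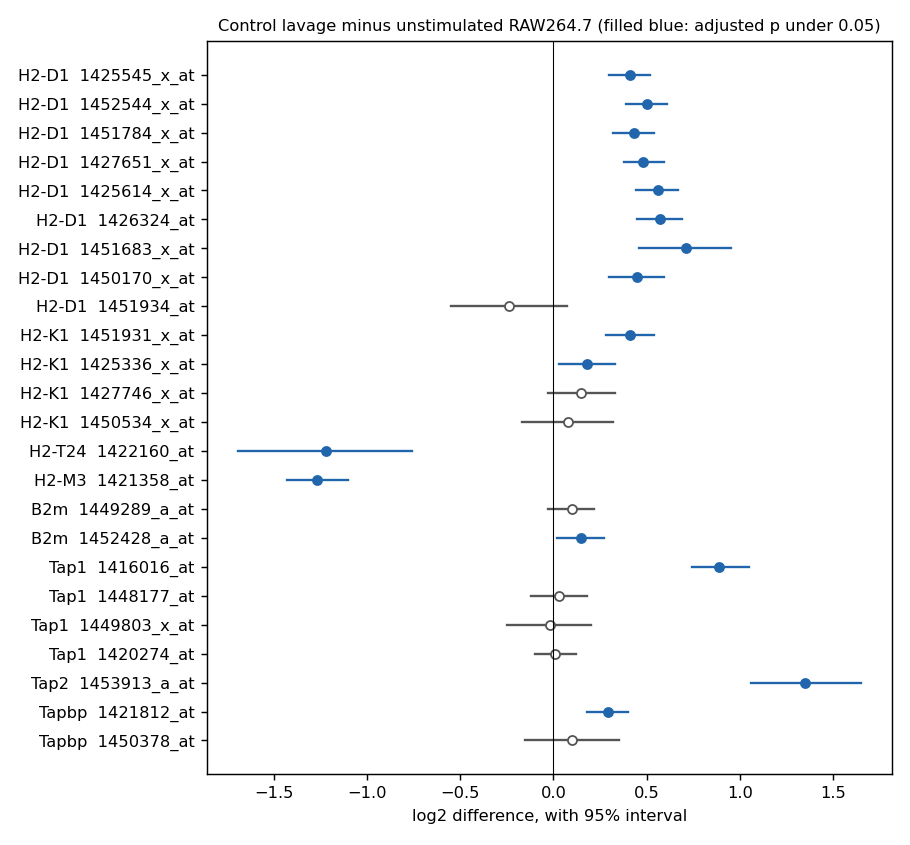
Log2 difference (points) with its 95% interval (lines) of 24 class I probe sets, control lavage cells minus unstimulated RAW264.7 cells; filled blue points have an adjusted p under 0.05. Tap2 (1.35) and Tap1 1416016_at (0.89) lie farthest right, and H2-M3 (-1.27) and H2-T24 (-1.22) farthest left.

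At the brightest probe set of each gene, 27.8% of all genes were higher in control lavage and 33.8% were lower. All 4 measured immunoproteasome genes were higher in control lavage, Psmb9 by 1.21 on the log2 scale. Of 12 other heavy chains, 6 were higher and 1 lower, among them the neonatal Fc receptor Fcgrt at 5.05 and Mr1 at 2.04 on the log2 scale. Cd1d1, which presents lipids to natural killer T cells, differed by 6.67 on the log2 scale, with means of 11.81 in control lavage and 5.15 in RAW264.7 cells, where it lay below the 40th percentile on every array. Of 12 loading partners, 3 were higher and 3 lower, shares no larger than those of all genes, with Tapbpl, a tapasin-related peptide editor, higher by 1.91. Of 18 regulators, 10 were higher and 4 lower, with Irf1 higher by 1.70. The epithelial sum was 14034 to 23767 in control lavage and 374 to 450 in unstimulated RAW264.7 cells, the neutrophil sum was 5968 to 20630 in control lavage and 411 to 455 in RAW264.7 cells, and their part in these differences was not tested.

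Levels of the 4 groups were ordered by mean within each probe set. For Tap1 (1416016_at) the order was Pregnant, Control, Estradiol, Unstimulated, and no neighbouring groups overlapped. For H2-T24 it was Unstimulated, Control, Pregnant, Estradiol, and only Unstimulated stood apart from its neighbour. For Tap2 it was Pregnant, Control, Estradiol, Unstimulated, with the arrays of Control and Estradiol apart and the other neighbours overlapping. For H2-M3 it was Estradiol, Unstimulated, Pregnant, Control, with a gap only between the cell line and lavage. For B2m 1449289_a_at all neighbours overlapped.

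After subtraction of each source's mean, H2-T24 and Tap1 varied in opposite directions over the 12 arrays, with a Pearson r of -0.958. H2-T24 and H2-D1 (brightest probe sets) had r = 0.846, H2-K1 and H2-D1 had r = 0.840, Tap1 and Tap2 had r = 0.643, and B2m and Tap1 had r = 0.412. These values describe 12 arrays that share 2 sources and include the group differences given above. The H2-K1 and H2-D1 probe sets compared both carry the _x_at suffix and may read either gene, so their r may not compare separate transcripts. Of 7910 genes compared, those most like H2-T24 were Pkib (r = 0.980), Cd36 (r = 0.980) and S1pr1 (r = 0.962). Those most like Tap1 were Aaas (r = 0.974), Acad11 (r = 0.968) and Fbxw9 (r = 0.962). Those most like H2-K1 were Cd84 (r = 0.898), Tspyl4 (r = 0.859) and Clta (r = 0.854), and those most like B2m were Nsun6 (r = 0.915), Zfp574 (r = 0.899) and Herpud2 (r = 0.878). The plot of Tap1 against H2-T24 shows the arrays behind the first value.

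**Figure D4:**
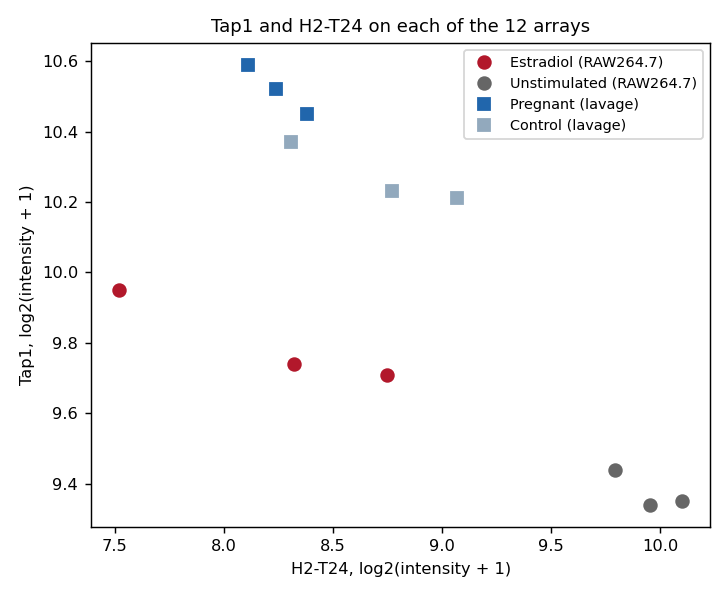
Log2(intensity + 1) of Tap1 (1416016_at, vertical axis) against H2-T24 (1422160_at, horizontal axis) on 12 arrays; circles are RAW264.7 cells, squares lavage cells. Estradiol arrays lie at lower H2-T24 and higher Tap1 than unstimulated arrays, and estradiol replicate 2 is the array with the lowest H2-T24, at 7.52.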

How the data were processed

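The deposited values are RMA intensities, per the submitters' processing notes, on a linear scale per the values in the file (6.51 to 28506 intensity units). Gene symbols came from GEO's platform annotation, which can be old; 29 single-gene probe sets matched no current RefSeq gene. The background correction, normalization and summarization settings are not given in the sources used here. RMA shrinks differences between arrays and gives no detection call, so low values cannot be told from background, and precision is limited by the number of arrays.

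Of 22690 probe sets, 64 control probe sets were left out, and 20380 had 1 gene symbol, 691 several and 1555 none. The 691 and 1555 entered only the alternative over all non-control probe sets. Values were taken as log2(intensity + 1), with a pseudocount of 1. Tests were limma 3.58.1 (lmFit, eBayes) in R 4.3.3, two-sided, with Benjamini-Hochberg adjustment over the 20380, on the 6 arrays of each pair of groups or on all 12 for the difference. The calculation was tested on simulated data. Promoters were matched by symbol. Replicates were numbered in deposit order. The members and gene lists were chosen with earlier results of these data known. Listed genes named are up to 3 per list and comparison by smallest p among the called, with Nlrc5 and Irf1 in every comparison where measured. Outside this rule, the markers Mertk and Itgam were named for their levels, and Epcam and Cd3g in the pregnancy comparison. One item is not reported here. Alternatives covered normalization, pseudocount, dim probe sets, probe sets per gene, prior, array weights, threshold and omission of each array.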

Additional observations from a re-analysis of the deposited data

Results flagged for a closer look

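The lists searched held 12 other heavy chains, 12 loading partners, 4 immunoproteasome genes and 18 regulators. In 4 of these genes the pregnancy change and the estradiol change differed in limma's contrast over 12 arrays. At the brightest probe set of each gene, 3.61% of all genes were called in this contrast in either direction. The interferon-stimulated and class II lists, with 3 genes higher and 1 lower each, were not part of this flag. Mr1 differed by 1.08 on the log2 scale (adjusted p = 0.000635), with means of 10.45 in pregnant and 10.33 in control lavage, and of 7.32 with estradiol and 8.30 in unstimulated RAW264.7 cells. This call held in 12 of 12 fits that left out an array. Hfe differed by 0.37 (adjusted p = 0.0305 in limma), with means of 10.86 in pregnant and 10.89 in control lavage, and of 9.60 with estradiol and 10.01 in unstimulated cells, and held in 4 of 12. Psmb8 differed by 0.33 (adjusted p = 0.0283 in limma), with means of 12.29 in pregnant and 12.24 in control lavage, and of 11.01 with estradiol and 11.30 in unstimulated cells, and held in 4 of 12. Uggt1 differed by -0.60 (adjusted p = 0.0337 in limma), with means of 9.14 in pregnant and 9.28 in control lavage, and of 8.95 with estradiol and 8.49 in unstimulated cells, and held in 3 of 12.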

How the results depend on the processing

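No direction of a called value reversed under the alternatives run. With estradiol, 1 of 24 probe sets rose and 2 fell; at an adjusted p under 0.01 both counts were 0, after a shift of every array to a common median 1 fell, and with array weights 3 rose and 4 fell, while the calls over all probe sets went to 7885, against 1970. One probe set per gene gave 1 of 8 genes lower, and the mean of probe sets per gene gave 0 higher and 1 lower. Leaving out 1 array gave 0 to 1 higher and 0 to 1 lower, with 750 to 2579 calls over all probe sets. In pregnancy the count of class I calls was 0 under every alternative run, while all probe sets gave 32 calls with the 12 arrays in one fit and 1 call without control replicate 1. For the difference of changes, 0 were higher; array weights gave 3 (H2-T24 and 2 of H2-D1), and omissions gave 0 to 1, the 1 being H2-D1 1450170_x_at without pregnant replicate 3 (adjusted p = 0.0198 in limma). Over all probe sets that contrast gave 665 calls, 1954 with array weights and 320 to 703 over the omissions. Between the sources, 14 were higher; one probe set per gene and the mean per gene each gave 5 of 8 genes. These gene-level fits test fewer features; the cause of the other shifts was not tested. No paired analysis was possible because the replicate numbers only follow deposit order. In 2 fits the array-weight estimate stopped before full convergence.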
